A study of Mus musculus with 4 samples.

Results

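Chromatin accessibility at 9 genes of neural homeobox factors was examined in mouse small cell lung cancer (SCLC) cells. The genes were *Pou3f2*, *Pou4f1*, *Onecut1*, *Onecut2*, *Isl1*, *Isl2*, *Lhx2*, *Nkx2-2* and *Dlx5*, and they are 9 of the 21938 protein-coding genes of the annotation. Every ATAC-seq peak that overlapped the gene body or the 50 kb on either side of it was taken, whatever its strength. This gave 63 of 91057 and 88 of 153954 peaks in SMC lines 1 and 2, and 60 of 115837 and 56 of 128710 peaks in non-SMC lines 1 and 2. Where the 4 peak lists were joined, these peaks formed 190 of 357570 open regions.

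All 4 lines were untreated cell lines grown from lung tumors of *RP* mice (Rb1L/L, Trp53L/L, strain given as mixed from C57Bl/6, Balb-c and S129), in which adenoviral Cre given into the trachea removes both genes. The Cre is driven by the CMV promoter and so is not limited to a cell type of the lung, and SMC and non-SMC lack *Rb1* and *Trp53* alike. SMC were sorted as NCAMhi CD44lo/- cells and grow in suspension as spheres, and non-SMC were sorted as NCAMlo CD44hi cells and grow attached. There were 2 lines of each type and 1 library per line, so cell type and growth form cannot be told apart. The sources used here do not say from which animal each line came. With 2 libraries against 2, the smallest two-sided exact permutation p is 0.333, and no test was made between the types.

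Homeobox factors bind DNA through a homeodomain and set the identity of cells during development. POU, ONECUT, LIM and NK members act in neurons and in endocrine cells, and DLX members in forebrain interneurons. SCLC is a neuroendocrine cancer that shares much of its gene expression with neurons. ATAC-seq marks open chromatin through the places where a transposase can insert into DNA, and it does not measure whether a gene is transcribed.

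The strength of a peak is given here as its height, the number of reads piled up at the summit over the background of the whole genome in the same library. A height of 10 means 10 times as many reads as background, and the interval behind a height is the 95% Poisson interval of its reads, which covers counting error alone. SMC line 1 was the shallowest library, non-SMC line 2 was a little deeper, and the background of SMC line 2 was 3.37 times and of non-SMC line 1 3.26 times that of SMC line 1. The lowest height that could be listed where the local background equals that of the genome was therefore 6.58 and 3.25 for SMC lines 1 and 2 and 3.37 and 4.70 for non-SMC lines 1 and 2, and more where the local background is raised. A missing peak means only that no peak reached that level. The lists were loose, since 127 of the 267 peaks at the 9 genes had a q-value of 0.05 or more, and the median peak there rested on 5, 8, 10 and 5 reads in the same order of libraries. At the promoters, 5 of 5 non-SMC markers (*Cd44*, *Vim*, *Wwtr1*, *Yap1*, *Axl*) were higher in both non-SMC lines than in either SMC line, against 22% of all genes. Of the SMC markers, 4 of 6, among them *Insm1*, *Chga* and *Syp*, were higher in both SMC lines, against 10.7% of all genes. The epithelial gene *Epcam* was higher there too, whereas *Ncam1* and *Neurod1* overlapped between the types. The wider windows were less clear for the SMC markers. Regions listed for both SMC lines alone outnumbered those for both non-SMC lines alone at 3 of 6 (20.8% of all genes). They were fewer at 2 (48.1%), *Ncam1* (3 against 9) and *Syp* (0 against 2). They were fewer at 4 of 5 non-SMC markers.

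A few sequences carry the differences described below. The first 5, each with 100 bp on either side of the summit, are regions listed for both lines of one type and for no line of the other. Leaving aside *Onecut2*, for which no sequence is printed, they are the 5 with the highest mean percentile of fold enrichment among the sites named by the rule. The sixth is a region upstream of *Pou4f1* that was open in 3 libraries, and the last is the 200 bp before the *Isl1* TSS, whose peak split the lines by number instead of by type, both chosen after their values were seen. All are read from GRCm38 (mm10), on the plus strand except the *Isl1* promoter, which is given on the minus strand, the strand of the gene. Capitals mark matches to the motifs described at the end.
Isl1, SMC-only, 26298 bp upstream of the TSS, chr13:116335887-116336087: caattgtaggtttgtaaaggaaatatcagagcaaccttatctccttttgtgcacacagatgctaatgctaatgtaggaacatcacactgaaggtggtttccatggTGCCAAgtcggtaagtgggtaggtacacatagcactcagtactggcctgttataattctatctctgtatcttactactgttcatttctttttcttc
Lhx2, SMC-only, 59747 bp downstream of the TSS, chr2:38398928-38399128: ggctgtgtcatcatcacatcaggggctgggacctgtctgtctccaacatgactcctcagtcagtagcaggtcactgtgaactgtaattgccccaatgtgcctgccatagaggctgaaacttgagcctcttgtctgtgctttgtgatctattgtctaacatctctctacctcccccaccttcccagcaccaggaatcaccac
Lhx2, non-SMC-only, 47425 bp upstream of the TSS, chr2:38291756-38291956: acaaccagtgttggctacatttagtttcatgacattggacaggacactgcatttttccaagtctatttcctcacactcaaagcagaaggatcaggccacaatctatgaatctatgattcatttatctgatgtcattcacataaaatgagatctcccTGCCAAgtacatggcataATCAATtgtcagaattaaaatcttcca
Dlx5, non-SMC-only, 27710 bp upstream of the TSS, chr6:6909695-6909895: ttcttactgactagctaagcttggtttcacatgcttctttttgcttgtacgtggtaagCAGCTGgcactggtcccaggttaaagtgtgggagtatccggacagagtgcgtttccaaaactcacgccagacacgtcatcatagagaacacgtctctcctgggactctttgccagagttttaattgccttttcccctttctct
Pou4f1, non-SMC-only, 24645 bp upstream of the TSS, chr14:104492544-104492744: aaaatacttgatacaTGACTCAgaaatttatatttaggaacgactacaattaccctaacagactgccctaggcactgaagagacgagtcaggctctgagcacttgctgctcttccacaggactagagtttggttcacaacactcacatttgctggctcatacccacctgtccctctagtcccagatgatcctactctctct
Pou4f1, in 3 libraries, 6774 bp upstream of the TSS, chr14:104474673-104474873: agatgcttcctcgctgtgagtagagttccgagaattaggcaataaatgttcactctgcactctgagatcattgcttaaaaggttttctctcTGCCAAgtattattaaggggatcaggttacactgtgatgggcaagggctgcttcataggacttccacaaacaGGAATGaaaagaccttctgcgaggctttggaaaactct
Isl1, promoter, chr13:116309690-116309889: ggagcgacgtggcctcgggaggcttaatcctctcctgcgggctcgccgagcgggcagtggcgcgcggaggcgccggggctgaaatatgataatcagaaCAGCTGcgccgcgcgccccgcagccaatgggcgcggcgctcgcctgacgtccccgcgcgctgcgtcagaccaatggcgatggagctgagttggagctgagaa

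The 9 genes took a larger share of the peaks in both SMC lines than in either non-SMC line. SMC lines 1 and 2 had 0.0692% (95% Wilson interval 0.0541 to 0.0885) and 0.0572% (0.0464 to 0.0704) of their peaks there. Non-SMC lines 1 and 2 had 0.0518% (0.0402 to 0.0667) and 0.0435% (0.0335 to 0.0565). SMC averaged 0.0632% ± 0.0085 (SD, n = 2) and non-SMC 0.0477% ± 0.00586 (SD, n = 2). The gap of 0.0155 percentage points was larger than the SD between lines of a type, 0.0073, but the intervals of all 4 libraries overlapped. These intervals cover counting error alone and not the spread between lines. The size of the gap depended on the peaks kept. It was 0.00549 among the same number of top peaks per library, 0.0088 with all libraries scaled to the depth of SMC line 1 at a -log10 p of at least 5, and 0.0203 at a -log10 q of at least 5. In the last case the order of the lines was lost, since SMC line 2, at 0.0456%, fell below the first non-SMC line.

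The regions shared by the lines of a type did not separate SMC from non-SMC in number. SMC-only regions (listed for both SMC lines and for no non-SMC line) were 8 of 190, or 4.21%, against 4.37% of all regions. Non-SMC-only regions were also 8 of 190, or 4.21%, against 7.33% of all regions. A further 8 had a peak in all 4 libraries, 4.21% against 3.81%. The other 166 included 146 regions with a peak in a single library (76.8%, against 76.9% of all regions), so most openings near these genes were seen once. Of the 190 summits, 18 lay in exons, 44 in introns and 128 between genes, and 148 were nearer to the TSS of the homeobox gene than to that of any other protein-coding gene.

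**Figure D1:**
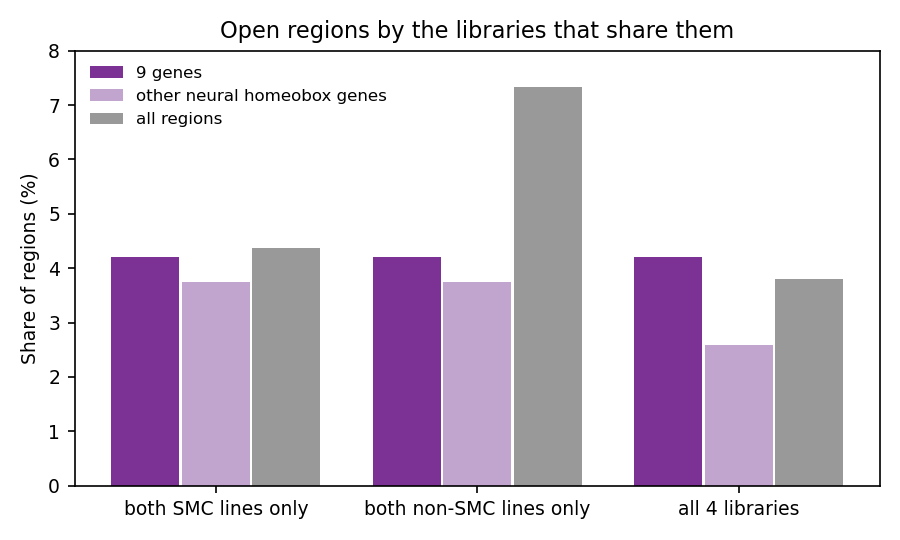
Share of open regions (%, vertical axis) with a peak in both SMC lines only, both non-SMC lines only or all 4 libraries, for the 190 regions at the 9 genes, the 2086 regions at 72 other neural homeobox genes and all 357570 regions. At the 9 genes the 3 patterns each made up 4.21%, and the share of non-SMC-only regions, 7.33% of all regions, was lower at both sets of homeobox genes.

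An SMC-only region stood near 5 of the 9 genes, compared with 53.4% of all genes, and a non-SMC-only region near 6 of 9, compared with 67.9%. A region open in all 4 libraries stood near 5 of 9, compared with 70.4%. *Pou3f2*, *Isl1* and *Nkx2-2* had more SMC-only than non-SMC-only regions, 3 of 9 genes against 20.8% of all genes, and none of the 3 had a non-SMC-only one. *Pou4f1*, *Onecut1*, *Isl2*, *Lhx2* and *Dlx5* had fewer, 5 of 9 against 48.1%, and *Onecut2* had 2 of each. Only *Nkx2-2* differed by more than 1 region.

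**Figure D2:**
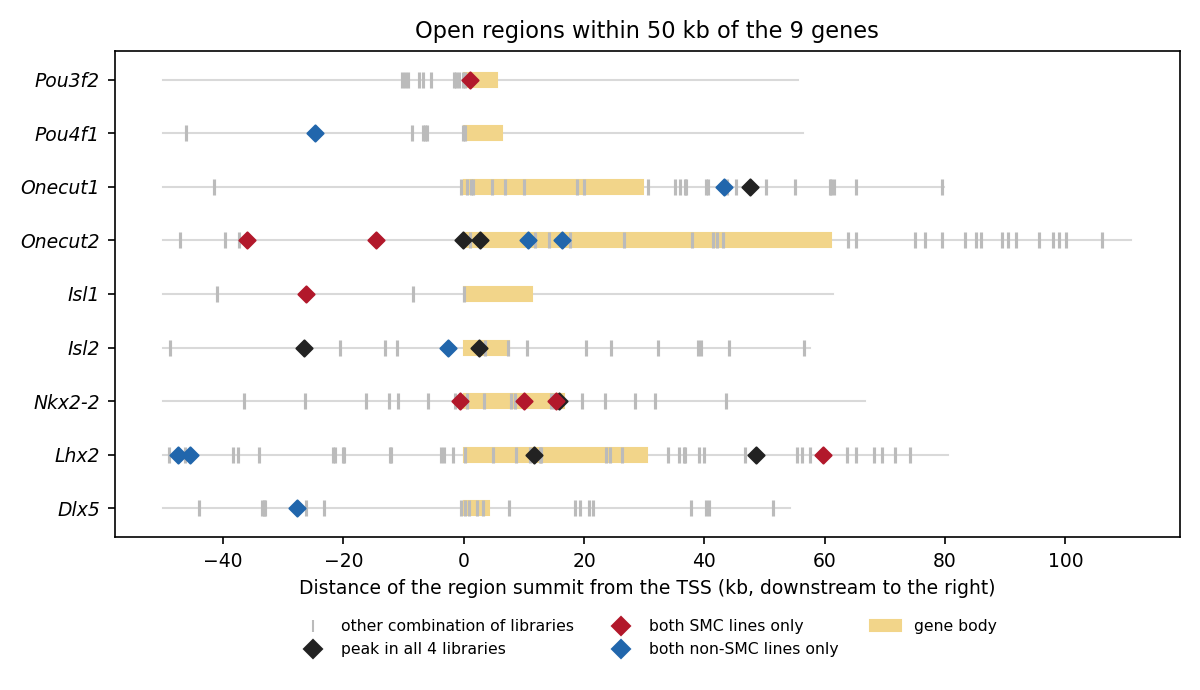
Map of the 190 open regions by distance of the summit from the TSS (kb, horizontal axis, downstream to the right), with 1 row per gene and the gene body as a yellow bar. Red and blue diamonds mark regions of a single type, 8 SMC-only and 8 non-SMC-only, black diamonds the 8 regions with a peak in all 4 libraries and gray ticks the other 166. *Nkx2-2* has 3 red and no blue diamonds, and *Isl1* has 4 regions in all.

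Promoters, taken as the 6 kb centered on the TSS as the study did, were open at all 9 genes in the 2 lines numbered 1, SMC and non-SMC, against 62.2% and 64.6% of all genes. SMC line 2 had a peak at 7 of 9 (69.3% of all genes), without *Isl1* and *Lhx2*. Non-SMC line 2 had a peak at 5 of 9 (64.9%), without *Pou3f2*, *Pou4f1*, *Onecut1* and *Isl1*, although it was deeper than SMC line 1. No promoter of the 9 was SMC-only (3.08% of all genes) or non-SMC-only (2.45%), and 4 of 9 were open in all libraries (48.7%). Among these 4 was *Nkx2-2*, whose TSS as taken here is the start of non-coding transcripts. The highest promoter peak was higher in both SMC lines than in either non-SMC line at *Pou3f2*, *Pou4f1* and *Onecut1*, 3 of 9 against 10.7% of all genes. The local background at these peaks was 1.11 to 2.51 times that of the genome in the SMC lines and 1.00 to 1.01 times in non-SMC line 1. Fold enrichment over the local background kept the order with smaller gaps. It was 3.44 and 7.42 in SMC against 3.22 in non-SMC line 1 at *Pou3f2*, 4.66 and 5.16 against 4.02 at *Pou4f1*, and 3.94 and 4.76 against 3.61 at *Onecut1*. Heights over the genome background ran the other way at *Onecut2* and *Isl2*, 2 of 9 against 22% of all genes. The other 4 overlapped. Promoter heights were low in SMC line 2 in general. The median over genes with a promoter peak in all libraries was 14.3 there, against 21.9 in SMC line 1 and 22.2 and 21.9 in non-SMC lines 1 and 2. Divided by these medians, 4 of 9 promoters were higher in both SMC lines, *Dlx5* being added to the 3 above. At *Onecut2* and *Isl2* the types overlapped after this division. The share of all genes was not computed on this scale.

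**Figure D3:**
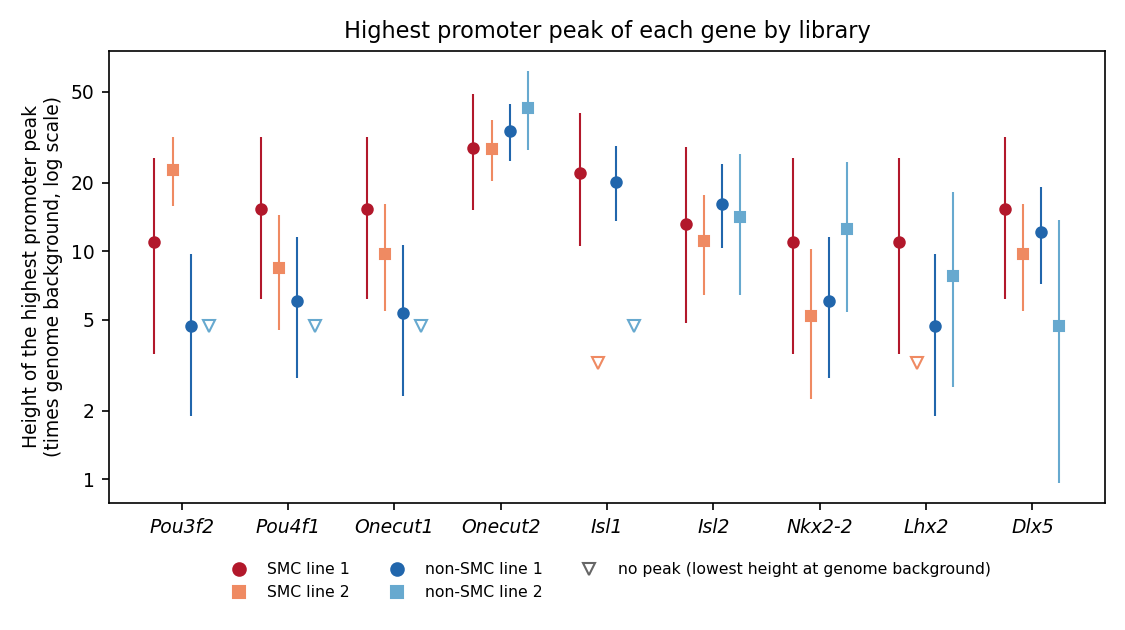
Height of the highest peak within 3 kb of the TSS (times genome background, log scale) for each gene and library, with bars for the 95% Poisson interval of the reads. Open triangles mark libraries without a promoter peak, at the lowest height listed at genome background. The 3 genes *Pou3f2*, *Pou4f1* and *Onecut1* lack a peak in non-SMC line 2 and reach 4.71 to 6.06 in non-SMC line 1.

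*Pou3f2* encodes the POU factor BRN2, which acts in neuronal development. The gene (ENSMUSG00000095139.2) is a single exon at chr4:22482780-22488366 on the minus strand. Its highest promoter peak had heights of 11.0 (interval 3.56 to 25.6) and 22.8 (15.8 to 31.6) in SMC lines 1 and 2. Non-SMC line 1 reached 4.71 (1.89 to 9.71) and non-SMC line 2 had no peak. Both SMC lines were above non-SMC line 1, and the interval of SMC line 2 alone was clear of it. The summits did not coincide. SMC line 1 peaked 272 bp downstream of the TSS, SMC line 2 105 bp upstream and non-SMC line 1 733 bp upstream, and none of these 3 peaks overlapped another. The SMC-only region of *Pou3f2* was 1007 bp downstream, inside the coding sequence, and was weak, with heights of 6.58 on 3 reads and 8.45 on 13 reads and a mean percentile of 22.9. The window held 3 and 7 peaks in SMC lines 1 and 2 and 3 and 1 in non-SMC lines 1 and 2.

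*Pou4f1* encodes BRN3A, a POU factor of sensory neurons. The gene (ENSMUSG00000048349.9) lies at chr14:104461676-104467999 on the minus strand. A region 69 bp upstream of the TSS had heights of 15.3 (6.17 to 31.6) and 8.45 (4.50 to 14.5) in SMC lines 1 and 2 and 6.06 (2.77 to 11.5) in non-SMC line 1, with no peak in non-SMC line 2. Both SMC values were the higher ones, and all 3 intervals overlapped. The region 6774 bp upstream, between genes, showed a wider gap. Its heights were 13.2 (4.83 to 28.6) and 13.7 (8.45 to 20.9) in the SMC lines and 4.04 (1.48 to 8.79) in non-SMC line 1, again without a peak in non-SMC line 2. It was the single SMC-only region at the 9 genes when all libraries were scaled to the depth of SMC line 1 and held to a -log10 p of at least 5.
A second distal region of *Pou4f1* had the opposite pattern. It lay 24645 bp upstream, in an intron of *Rnf219*, with heights of 11.4 (6.67 to 18.3) and 9.39 (3.45 to 20.4) in non-SMC lines 1 and 2 and no peak in either SMC line. Its sequence, printed above, holds a match to the AP-1 motif. The flank of *Pou4f1* held 1 distal region that was higher in SMC and 1 that was listed in non-SMC only.

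*Onecut1* encodes HNF6, which acts in liver, endocrine pancreas and neurons. The gene (ENSMUSG00000043013.10) lies at chr9:74861921-74891781 on the plus strand. Its promoter region, with the summit 606 bp downstream of the TSS in the coding part of the first exon, had heights of 15.3 (6.17 to 31.6) and 9.75 (5.46 to 16.1) in SMC lines 1 and 2 and 5.38 (2.32 to 10.6) in non-SMC line 1, with none in non-SMC line 2. The order was that of *Pou4f1*, and here too the intervals overlapped. Peaks in the window numbered 8 and 14 in SMC and 6 and 7 in non-SMC, so that the density was higher in both SMC lines, 8.79 and 9.09 peaks per 100000 of the library's peaks against 5.18 and 5.44. The strongest shared region was distal, 47532 bp downstream of the TSS, with heights of 28.5 and 7.80 in the SMC lines and 10.1 and 11.0 in the non-SMC lines. The 1 non-SMC-only region, 43185 bp downstream, was weak (6.06 and 6.26).

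*Onecut2*, a paralog of *Onecut1* that is expressed in neurons and in neuroendocrine cancers, was open at its TSS in all 4 libraries. The gene (ENSMUSG00000045991.19) spans chr18:64340020-64400987 on the plus strand. A peak 50 bp upstream of the TSS had heights of 24.1 (12.0 to 43.1) and 28.0 (20.2 to 37.7) in the SMC lines and 33.7 (25.0 to 44.4) and 29.7 (17.9 to 46.4) in the non-SMC lines. The non-SMC values were above the SMC values, with overlapping intervals. A second shared peak in the first intron, 2778 bp downstream, differed more, with 28.5 and 6.50 in SMC and 31.0 and 42.3 in non-SMC. The local background at these promoter peaks was 2.14 to 3.65 times that of the genome, and its part in the heights was not tested. Fold enrichment over it overlapped between the types at the TSS peak, with 5.24 and 10.25 in SMC and 8.05 and 7.37 in non-SMC. At the intronic peak it kept the order, with 5.86 and 2.51 against 7.32 and 10.06.
The flanks and the introns of *Onecut2* went in opposite directions. Both SMC-only regions lay upstream between genes, 36013 bp from the TSS with heights of 26.3 (13.6 to 45.9) and 7.80 (4.03 to 13.6), and 14592 bp from it with 13.2 and 5.85. Both non-SMC-only regions lay in introns, 10742 bp downstream with heights of 5.38 and 20.3 in non-SMC lines 1 and 2, and 16391 bp downstream with 12.1 and 7.83. Another intronic region, 37950 bp downstream (chr18:64377588-64378302), had heights of 37.0 (27.9 to 48.2) and 26.6 (15.5 to 42.6) in non-SMC lines 1 and 2. SMC line 2 reached 5.85 (2.68 to 11.1) and SMC line 1 had no peak. The intervals of both non-SMC lines were clear of that of SMC line 2. It was non-SMC-only where a -log10 q of 5 was required and also at the common depth, the only region of the 190 with the same type pattern under both. Among SMC-only regions, the one 36013 bp upstream was alone in passing the same q threshold.

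*Isl1* encodes a LIM homeobox factor of motor neurons and endocrine pancreas. The gene (ENSMUSG00000042258.13) lies at chr13:116298281-116309689 on the minus strand, and only 4 open regions were found in its window. The promoter, shown above, had a height of 21.9 (10.5 to 40.3) for SMC and 20.2 (13.6 to 28.8) for non-SMC in the lines numbered 1. Neither line numbered 2 had a promoter peak. The lowest heights that could be listed there at genome background were 3.25 for SMC and 4.70 for non-SMC. The 2 lines numbered 1 were alike and the 2 lines numbered 2 were alike, so that the listed promoter peaks followed the line number and not the cell type. This pattern was picked out after the values were seen, and the share of all genes with it was not computed. Instead, the region that followed the type was 26298 bp upstream, between genes, with heights of 13.2 (4.83 to 28.6) and 9.75 (5.46 to 16.1) in SMC lines 1 and 2 and no peak in either non-SMC line. In SMC line 2 this distal region was the only peak of the window.

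*Isl2*, a paralog of *Isl1* in motor neurons, had its promoter peak in all 4 libraries. The gene (ENSMUSG00000032318.12) lies at chr9:55538672-55546180 on the plus strand. The peak was 2460 bp downstream of the annotated 5′ end of the gene and 16 bp from the start of another coding transcript, while no library had a peak within 500 bp of the 5′ end itself. Heights were 13.2 (4.83 to 28.6) and 11.1 (6.44 to 17.7) in SMC and 16.2 (10.3 to 24.0) and 14.1 (6.44 to 26.7) in non-SMC. The types did not overlap, but the 4 values lay within each other's intervals. Scaled to the depth of SMC line 1 with a -log10 p of at least 5, the peak was left in the non-SMC lines only. The 1 non-SMC-only region, 2536 bp upstream, was weak (5.38 and 6.26). The other region open in all libraries was at the promoter of the neighbor *Etfa*.

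*Lhx2*, a LIM homeobox gene of forebrain and eye, had the most regions, 44. The gene (ENSMUSG00000000247.11) lies at chr2:38339281-38369733 on the plus strand. At its 5′ end peaks were few and low, with a height of 11.0 for SMC line 1 and none for SMC line 2. Non-SMC line 2 reached 7.83, and non-SMC line 1 reached 4.71 at 1775 bp upstream. The main opening was 11758 bp downstream, 280 bp past the start of a shorter coding transcript and in its 5′ UTR. Heights there were 28.5 (15.2 to 48.7) and 33.2 (24.7 to 43.6) in the SMC lines and 33.7 (25.0 to 44.4) and 15.7 (7.51 to 28.8) in the non-SMC lines. The types overlapped, and non-SMC line 2 was the lowest.
The type-specific regions of *Lhx2* were far from the gene. The SMC-only region was 59747 bp downstream of the TSS, with heights of 19.7 (9.02 to 37.4) and 7.80 (4.03 to 13.6). Non-SMC-only regions lay 47425 bp upstream, with 18.2 (12.0 to 26.4) and 26.6 (15.5 to 42.6), and 45507 bp upstream, with 18.2 and 9.39. Both were nearer to *Dennd1a*, whose nearest annotated start was 4466 bp from the first, than to *Lhx2*. The first of them also passed a -log10 q of 5 in both lines.

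*Nkx2-2* encodes an NK homeobox factor of ventral spinal cord and endocrine pancreas. The gene (ENSMUSG00000027434.11) lies at chr2:147177546-147194243 on the minus strand, and had 3 SMC-only regions and no non-SMC-only one, the largest difference of the 9 with all 4 lists as deposited. Without non-SMC line 1 the difference was 0, as it was at a -log10 q of at least 5 and at the common depth. Without SMC line 1 it was 9, and 12 at *Lhx2*, and without SMC line 2 it was 7, and 8 at *Lhx2*. All 3 regions were weak. One was 10000 bp downstream of the 5′ end, in the coding sequence and 160 bp inside the antisense gene *Nkx2-2os*, with heights of 8.77 on 4 reads and 6.50 on 10 reads. The others were 643 bp upstream, with 11.0 and 5.20, and 15337 bp downstream, with 6.58 and 5.20. None of these 6 peaks reached a -log10 q of 2. The window held 12 and 12 peaks in the SMC lines and 5 and 8 in the non-SMC lines.
The 5′ end taken as the TSS of *Nkx2-2* is the start of processed transcripts that are not annotated as coding. The promoter around it did not follow the type. The highest peaks were 11.0 and 5.20 in SMC lines 1 and 2 and 6.06 and 12.5 in non-SMC lines 1 and 2, which is 1 line of each type high and 1 low. At the start of a coding transcript 7839 bp downstream of the 5′ end, only SMC line 1 had a peak within 500 bp, with a height of 8.77. At another, 8142 bp downstream, SMC line 1 had a height of 8.77 and the second non-SMC line one of 9.39, with no peak in the others. The region in all 4 libraries was 15914 bp downstream, near the 3′ end of the gene, with heights of 13.2 and 6.50 in SMC and 12.8 and 15.7 in non-SMC. The region 10879 bp upstream had heights of 21.9 and 3.90 in SMC lines 1 and 2 and 6.26 in the second non-SMC line.

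*Dlx5*, a distal-less gene of forebrain interneurons and bone, is the neighbor of *Dlx6*, whose body lies in its window. The gene (ENSMUSG00000029755.10) lies at chr6:6877805-6882085 on the minus strand. A region at the promoter, 204 bp downstream of the TSS in the coding sequence, had heights of 15.3 (6.17 to 31.6), 9.75 (5.46 to 16.1) and 12.1 (7.18 to 19.1) in SMC lines 1 and 2 and non-SMC line 1. Non-SMC line 2 had no peak there, and its highest promoter peak was 4.70 on 3 reads. The types overlapped in these heights, though not once they were divided by the median promoter height of each library. The start of *Dlx6* showed the same libraries, with 13.2, 7.15 and 10.8, and no peak in non-SMC line 2. The non-SMC-only region was 27710 bp upstream, with heights of 14.1 (8.75 to 21.6) and 9.39 (3.45 to 20.4). Non-SMC line 1 had the most peaks in the window, 11, compared with 5 and 8 in SMC and 5 in non-SMC line 2.

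**Figure D4:**
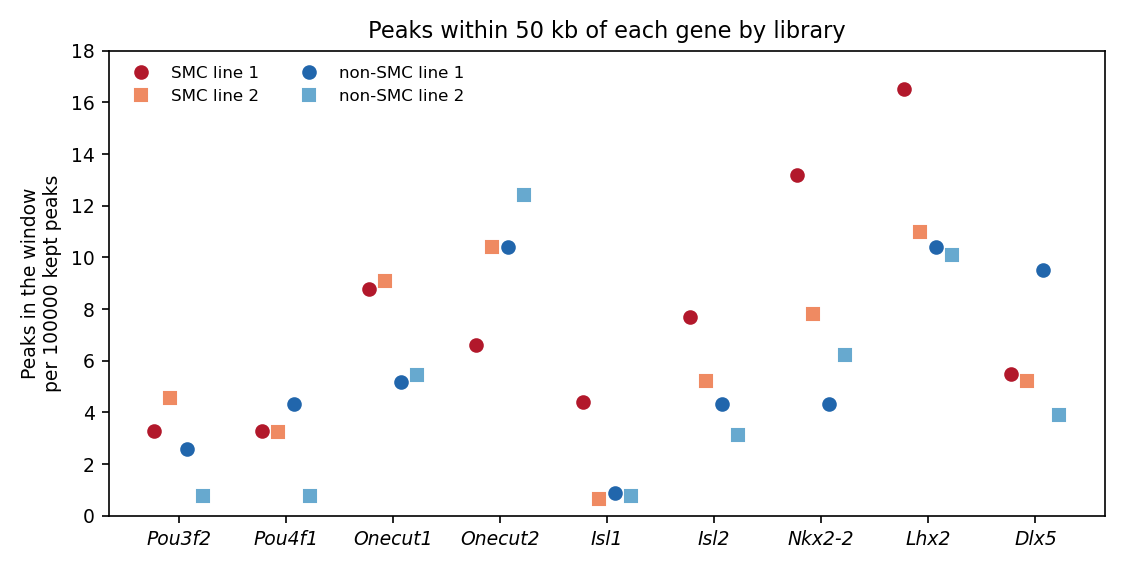
Peaks that overlap the gene body and 50 kb on either side, per 100000 kept peaks of the library (vertical axis), for each gene and line. At *Onecut1* both SMC lines (8.79 and 9.09) lie above both non-SMC lines (5.18 and 5.44), at *Pou3f2*, *Isl2*, *Nkx2-2* and *Lhx2* the order is the same, and at *Pou4f1*, *Onecut2*, *Isl1* and *Dlx5* the types overlap.

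Set side by side, the number of peaks in the window per 100000 peaks of the library was higher in both SMC lines than in either non-SMC line at 5 of the 9 genes (19.9% of all genes) and lower in both at 0 of 9 (19% of all genes). The 5 were *Pou3f2*, *Onecut1*, *Isl2*, *Nkx2-2* and *Lhx2*. At *Nkx2-2* the values were 13.2 and 7.79 in SMC and 4.32 and 6.22 in non-SMC. At *Lhx2* SMC line 1 stood out, with 16.5 against 11.0, 10.4 and 10.1 in the other lines. Lists of unequal depth differ in how many weak peaks they hold, and the part of depth in this order was not tested.

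Narrowing the promoter to the 1 kb centered on the TSS left 2 genes with peaks in the SMC lines only. *Pou3f2* and *Onecut1* then had a peak in both SMC lines and lacked one in the non-SMC lines, 2 of 9 genes against 3.1% of all genes. Both genes had a peak of non-SMC line 1 outside this window, with summits 733 bp upstream at *Pou3f2* and 722 bp downstream at *Onecut1*, and with a promoter of 2 kb 0 of 9 genes were SMC-only. Within the 1 kb, *Onecut2*, *Nkx2-2* (at its non-coding start) and *Dlx5* had a peak in all libraries, 3 of 9 against 39.4%. Within 500 bp of the start of a coding transcript, peaks in all 4 libraries were found at *Onecut2*, *Isl2*, *Lhx2* and *Dlx5*. *Pou4f1* had them in both SMC lines and non-SMC line 1, and *Isl1* in the 2 lines numbered 1. The share of all genes was not computed for this measure, in which a gene with several coding starts has more places to hold a peak. The *Dlx5* peak of non-SMC line 2 rested on 3 reads, at a -log10 q of 0.26. The promoter sequences of 7 of the 9 genes (not *Onecut2* and *Dlx5*) were matched in RefSeq (GRCm38.p6, 250 bp before to 50 bp after the start). Their median GC content was 69% against 57% for 16522 protein-coding genes, and their median CpG observed over expected was 0.885 against 0.598.

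Of 72 other neural homeobox genes, 13 had promoter heights above in both SMC lines and 13 in both non-SMC lines, with 46 overlapping. Their windows held 2086 regions, of which 78 were SMC-only and 78 non-SMC-only (3.74% each) and 54 were open in all libraries (2.59%). The largest excess of SMC-only regions was at *Prox1* (6 against 0), followed by *Lhx3* (5 against 0), with *Nkx2-1* (3 against 0) and *Six3* (4 against 1) among the genes after them. The largest excess of non-SMC-only regions was at *Prrx2* (9 against 0), then at *Dlx3* and *Dlx4* (6 against 1 each), which are neighbors and share regions, and at *Dlx2*, *Dlx6* and *Pou2f3* (3 against 0 each). The window of *Dlx6* overlaps that of *Dlx5* and includes the non-SMC-only region counted there. SMC-only promoters were 4 of 72 (5.56%), among them those of *Isx*, *Lmx1b* and *Nkx2-5*, and non-SMC-only ones 2 of 72 (2.78%), those of *Lhx6* and *Nkx2-3*, all named after their values were seen. Over the 4 libraries, the peak density of *Onecut2* was most like that of *Tlx1*, that of *Onecut1* most like *Pou4f3* and that of *Lhx2* most like *Pitx3*, with summed differences of 0.423, 0.571 and 0.698 in log2(1 + density), where density is peaks per 100 kb per 100000 peaks.

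Short motifs were searched up to 100 bp either side of each region's summit, on both strands, and none of the letters searched contains another. The homeobox core TAATTA was found in 4 of 190 regions (2.11%, against 3.44% of all regions), the ONECUT motif ATTGAT in 11 (5.79% against 6.22%), its other form ATCGAT in 1 (0.526% against 0.605%), and the POU octamer ATGCAAAT in 0 (against 1.03%). The proneural E-box CAGCTG was found in 29 (15.3% against 13.7%), and the NFI motif TTGGCA in 26 (13.7% against 12.8%). Lower shares than in all regions were seen for AP-1 (TGACTCA, 14 regions, 7.37% against 11.3%), the RUNX core (TGTGGT, 22, 11.6% against 18.5%) and, by less, the TEAD core (GGAATG, 22, 11.6% against 12.6%). AP-1, RUNX and TEAD letters were each in 2 of the 8 non-SMC-only and 0 of the 8 SMC-only regions, and the E-box in 2 and 3. The shares of these motifs over all SMC-only and all non-SMC-only regions were not computed, so no difference between the types is read from these small counts. Among the sequences printed, the SMC-only site of *Isl1* and the non-SMC-only site of *Lhx2* hold the NFI motif, the latter also an ONECUT match, the *Dlx5* site and the *Isl1* promoter hold the E-box, the *Pou4f1* site in 3 libraries holds the TEAD core and the NFI motif, and the SMC-only site of *Lhx2* holds none of the 9 motifs.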

How the data were processed

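ATAC-seq libraries of 2 SMC and 2 non-SMC lines were compared through the 4 peak lists that the authors deposited, 1 per library and not pooled. Per the labels and the study's methods, Bowtie2 v2.3.4 placed the reads on mm10, duplicates were removed and MACS2 v2.1.1 called the peaks. The settings of the peak calling are not given in the sources used here, and every listed peak had a p-value of up to 0.01. The lists held 91118 and 154039 peaks for SMC lines 1 and 2 and 115909 and 128788 for non-SMC lines 1 and 2, of which 61 to 85 per list on other sequences than chromosomes 1 to 19, X and Y were dropped. The authors gave the fold enrichment at each summit, a ratio to the background around it in that library. The -log10 of the p-value and the -log10 of the q-value were deposited beside it. The deposited score, which repeats the p-value, was not used.

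Reads at the summit and the local background were solved from fold enrichment and p, for all but 3 to 5 peaks per library, taking fold as (reads + 1)/(background + 1) and p as a Poisson tail. On 10863 simulated peaks 100% were recovered within 1 percent, and peak counts of 1000 windows did not differ from those of bedtools. Height is reads over the lowest background of the library, whose level scales with depth. The reads themselves were not analysed here.

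Positions were set against GRCm38 and GENCODE M21, taking the outermost 5′ base of each gene for the TSS. Peaks overlapping by at least 1 base were merged into regions, and member counts were read against the share of all regions or genes. The genes, the list of 72 other homeobox genes, the markers and the rules were chosen with earlier results of these data known. Named sites were the SMC-only and the non-SMC-only region of the highest mean percentile of fold enrichment at each gene. Regions open in 3 or 4 libraries, the -log10 q of single sites, transcript starts and the order of peaks in the windows were taken up after the data were seen. Of the other homeobox genes, those with the 4 highest and 4 lowest differences in type-only regions were named, with ties, and the 3 nearest pairs in peak density. Some markers and genes of these lists are not reported here by name. Replicates are separate lines, and a pair is the SMC and the non-SMC line of 1 number, since the labels speak of paired cells. Whether a number marks 1 tumor is not given in the sources used here. Tools were bedtools 2.31.1, samtools 1.23.1, pysam 0.24.0, scipy 1.17.1, matplotlib 3.10.9, pandas 2.3.3 and numpy 2.4.6, in Python 3.11.15.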

Additional observations from a re-analysis of the deposited data

Results flagged for a closer look

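At 3 genes the number of peaks in the window was higher in SMC in 1 line pair and higher in non-SMC in the other. The values are peaks per 100000 of the library, SMC minus non-SMC. *Pou4f1* gave -1.02 in pair 1 and 2.47 in pair 2, *Isl1* gave 3.53 and -0.127, and *Dlx5* gave -4.01 and 1.31. Each pair has 1 library of each type, so none of these differences between pairs was tested.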

How the results depend on the processing

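Counts of type-only regions depended on the threshold. At a -log10 q of at least 5, SMC-only regions were 1, non-SMC-only regions 2 and promoters open in all libraries 1, and the same 3 values were found at the common depth with a -log10 p of at least 5. Promoters higher in both SMC lines, an outcome chosen after seeing the data, were 0 under both and 1 where the local background was at most 2 times that of the genome. With the same number of top peaks, 2 promoters were open in all libraries and the difference in peak share was 0.00549. With no flank the counts were 3 and 2 and the share difference 0.00428, with 20 kb they were 5 and 4, and with 100 kb non-SMC-only regions were 14. A reciprocal overlap of 50% left 5 SMC-only regions, and a promoter of 1 kb gave 2 SMC-only promoters.

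Leaving out 1 library gave 10 to 68 SMC-only regions (68 without SMC line 1, 38 without SMC line 2, 13 without non-SMC line 1), 10 to 38 non-SMC-only regions (37 without non-SMC line 1, 38 without non-SMC line 2), 0 to 3 SMC-only promoters (3 without non-SMC line 1), 4 to 7 promoters open in all libraries (7 without non-SMC line 2), 3 to 6 promoters higher in SMC (6 without SMC line 2) and a share difference of 0.00951 to 0.0215. With 1 library in a type, more regions pass by construction. Within line pair 1 there were 42 SMC-only and 41 non-SMC-only regions, and within pair 2 there were 76 and 44. With line pair as a block (replicate block), the share differences within pairs were 0.0174 and 0.0137, with an SD of 0.00264 over the 2 pairs. Their mean, 0.0155, equals the main difference by arithmetic and is no check of it. Of 75 alternative values of these outcomes 44 stayed near the main value, among them the block mean that equals it by construction, and 31 moved. Of the 108 single-gene values of SMC-only minus non-SMC-only regions, 31 equaled the main value exactly and 77 differed from it, and 13 were of opposite sign.

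Depth limits these lists. A peak in SMC line 1 needed a height of 6.58, and many single-gene peaks rest on 3 to 10 reads.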
